A study of Mus musculus with 8 samples.

Results

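Complement was examined through 9 of the 27179 genes measured in C26 tumors, chosen by symbol as components and receptors of the system: C1qa, C1qb, C1qc and C4b of the classical arm, C3, Cfb and Cfp of the alternative arm, and the anaphylatoxin receptors C3ar1 and C5ar1. The choice used no measured value, although earlier results of these data were known. C26 is a mouse colon carcinoma line, and cxC26 is its cachexia-inducing form. The tumors grew under the skin of male CD2F1 mice, 13 to 18 weeks old, from cxC26 scr cells, which carry a scrambled CRISPR/Cas9 guide, or from cells of the cxC26 IL-6 KO s1 line, in which the gene of the cytokine interleukin-6 is disrupted. Each group had 4 tumors, collected once cachexia had developed, with euthanasia set at a body weight loss above 15%. All knockout tumors came from a single subclone. In the study's growth experiments in CD2F1 mice, tumors of this subclone were started from a larger cell inoculum and took longer to grow. The study's RNA-seq methods do not give inoculum or growth time for the tumors sequenced. Loss of IL-6, clonal differences, inoculum and tumor age therefore cannot be told apart in this comparison. The host mice kept an intact Il6 gene. Adjusted p-values are from limma over 13262 genes with at least 1 CPM (reads scaled to library size) in at least 4 of the 8 tumors, with a threshold of 0.05.

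Complement is a cascade of plasma and tissue proteins that marks targets for uptake, recruits leukocytes and can lyse cells. In the classical arm C1q binds antibody or altered surfaces and triggers cleavage of C4, and in the alternative arm C3 cleavage is amplified by factor B and stabilized by properdin. Cleavage of C3 and C5 releases small fragments that act on C3ar1 and C5ar1 of myeloid cells. The liver makes most circulating complement, whereas C1q is made largely by macrophages and immature dendritic cells, also within tumors.

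Between 14158989 and 17048062 reads were counted per tumor (median 15384974), and all pairs of tumors within a group differed by more than counting noise. The targeted gene Il6 ranged from 326 to 438 reads in the cxC26 scr tumors and from 56 to 86 reads in the knockout tumors, without overlap, and reads from host cells are included in these values. Markers of intestinal epithelium were uneven in these tumors of a colon carcinoma line. Epcam had at most 14 reads, Krt19 at most 1 and Vil1 at most 3 in any tumor, whereas Lgals4 had 70 to 136 and Cdh1 17 to 87 reads. Krt18 had 21 to 30 reads in cxC26 scr tumors against 140 to 282 in knockout tumors, and Cdx2 had 17 to 34 reads in cxC26 scr tumors against 0 to 1 in knockout tumors. Nothing states that tumors with the same replicate number belong together, and p-values measure the spread between tumors of different mice.

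Expression of 8 of the 9 complement genes was higher in tumors of cxC26 IL-6 KO s1 cells and that of none was lower, with C4b as the gene that did not pass the threshold. Among all tested genes 19.1% were called higher and 20.7% lower, 39.8% in either direction. For 7 of the 9 genes every knockout tumor lay above every cxC26 scr tumor, which was the case for 17.8% of the tested genes. The 9 genes had a median log2 fold change of 0.97, against -0.00289 over all tested genes, and all 9 had at least 131 reads in every tumor. The increase was at least 2-fold for 4 of them, C1qa, Cfb, Cfp and C3ar1, and both called and at least 2-fold for 6.25% of the tested genes. Knockout tumor 1 was the highest tumor for 8 of the 9 genes, the exception being C5ar1. Without that tumor the same count of 8 genes was called higher, with log2 fold changes from 0.56 for C1qc to 1.20 for C3ar1.

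**Figure D1:**
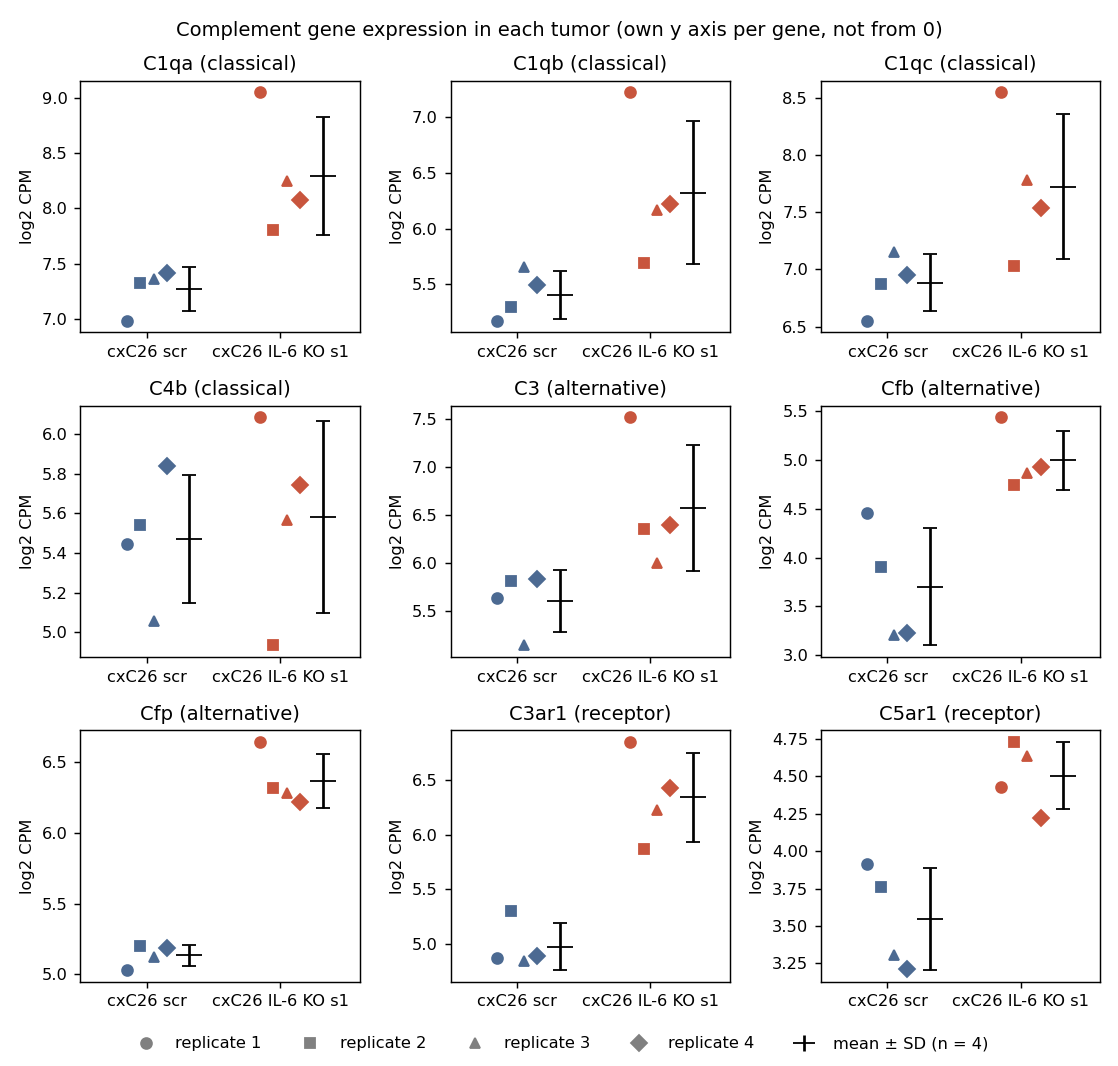
Expression of the 9 complement genes in each of the 8 tumors, on the y axis as log2 CPM with a separate scale for each gene, with symbols for the replicate number and bars for the mean ± SD of 4 tumors. The groups are separate for 7 genes and overlap for C1qc and C4b, and knockout tumor 1 is the highest tumor in every panel but that of C5ar1.

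The genes of the 3 chains of C1q lie side by side on the minus strand of chromosome 4 (GRCm38), C1qb at chr4:136880129-136886187, C1qc at chr4:136889804-136893065 and C1qa at chr4:136895917-136898803, with 3 exons each. Their products assemble in fixed proportion into the recognition molecule of the classical arm, and no stretch of 75 bases is shared between the C1qa and C1qb or the C1qb and C1qc transcripts. The bases just before the annotated start are shown for C1qb and C1qc because both neighbours were called higher. Promoter sequences are from RefSeq (GRCm38.p6), matched by symbol for 6 of the 9 genes and not for C1qa, C4b and Cfb. Each shows the 250 bases before the start, 5′ to 3′ on the strand of the gene, and the capitals mark a match to the ETS core AGGAAGT, here read on the opposite strand.
C1qb, chr4:136886201-136886450, minus strand: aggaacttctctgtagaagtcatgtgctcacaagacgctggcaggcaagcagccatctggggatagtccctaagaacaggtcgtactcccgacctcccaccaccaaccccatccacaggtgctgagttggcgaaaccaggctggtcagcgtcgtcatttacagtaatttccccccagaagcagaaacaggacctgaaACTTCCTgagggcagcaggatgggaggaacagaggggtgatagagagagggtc
C1qc, chr4:136892915-136893164, minus strand: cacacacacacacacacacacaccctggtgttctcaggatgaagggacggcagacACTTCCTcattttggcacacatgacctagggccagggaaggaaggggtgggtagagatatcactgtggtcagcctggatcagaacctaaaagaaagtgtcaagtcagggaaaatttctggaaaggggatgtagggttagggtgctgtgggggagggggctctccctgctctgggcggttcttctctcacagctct
The match lies 53 to 47 bases before the RefSeq start of C1qb and 195 to 189 bases before that of C1qc. Gene positions are from GENCODE M21, whose gene span reaches further upstream for C1qc, so that the RefSeq start lies 151 bases inside it and part of the printed sequence belongs to the span. The same letters, on either strand, occur in 7.69% of the 32851 promoters of this length, and a match describes the sequence without showing that a factor binds there.

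C1qa had 2109, 2589, 2344 and 2621 reads in cxC26 scr tumors 1 to 4, and 8606, 3104, 4799 and 3896 reads in the knockout tumors. The groups did not overlap, and tumor 1 stood above the other knockout tumors. Its mean rose from 7.27 ± 0.20 to 8.29 ± 0.53 log2 CPM (SD, n = 4 in each group), a 2.03-fold increase with a log2 fold change of 1.02 ± 0.21 (SE) and an adjusted p-value of 0.00305 by limma. Errors of means are SDs and errors of fold changes are SEs throughout. In bulk tumors, a larger number of cells of a type and more RNA per cell cannot be told apart, and this holds for every gene described here.

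C1qb had 602, 635, 717 and 694 reads in cxC26 scr tumors against 2423, 715, 1130 and 1079 reads in knockout tumors. After scaling to library size the groups were separate by a narrow margin, with knockout tumor 2 at 5.69 log2 CPM against 5.66 in cxC26 scr tumor 3. The increase was 1.89-fold (log2 fold change 0.92 ± 0.25, limma adjusted p = 0.0136) and was not called without a filter on low expression (0.0597). C1qc, with 1564, 1900, 2024 and 1907 reads against 6072, 1806, 3458 and 2685 reads, overlapped between the groups, since the second knockout tumor at 7.03 log2 CPM lay below the third cxC26 scr tumor at 7.15. Its increase of 1.79-fold passed the limma threshold (log2 fold change 0.84 ± 0.25, adjusted p = 0.0208), whereas the two-sided exact permutation test over the 70 splits of the 8 tumors gave p = 0.0571. The smallest p-value that this test allows is 0.0286, and it was reached by the 7 genes whose groups did not overlap. The call for C1qc was lost without cxC26 scr tumor 1 (limma adjusted p = 0.0611), without a filter on low expression (0.0845), without a mean-variance trend (0.0521) and with a robust variance (0.0566).

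Within a tumor the C1q chains kept a similar distance from each other. The difference between C1qa and C1qb was 1.86 ± 0.14 log2 CPM in the cxC26 scr tumors and 1.97 ± 0.15 in the knockout tumors, and that between C1qa and C1qc was 0.39 ± 0.12 and 0.57 ± 0.14. Both shifts between the groups were small beside the increase of each chain. For C1qa minus C1qc every knockout tumor still lay above every cxC26 scr tumor. The margin was narrow, with 0.473 in knockout tumor 3 against 0.459 in cxC26 scr tumor 4. No test was run on these differences.

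C4b, on chromosome 17 at chr17:34728380-34743882 with 41 exons, encodes the C4 protein whose larger fragment binds covalently to targets once C1 has been activated. Its reads numbered 727, 754, 473 and 879 in cxC26 scr tumors against 1102, 423, 747 and 775 in knockout tumors. The lowest of all tumors was knockout tumor 2 and the highest knockout tumor 1, with the cxC26 scr tumors between them. C4b averaged 5.47 ± 0.32 and 5.58 ± 0.48 log2 CPM, and the log2 fold change of 0.11 had a 95% interval from -0.37 to 0.59 (limma adjusted p = 0.717, exact permutation p = 0.714). The sign turned without cxC26 scr tumor 3 (-0.027) and without knockout tumor 1 (-0.056). The related gene C4a, at 22 to 59 reads per tumor, shares 23.5% of the 75-base windows of the C4b transcript, so that some reads could be divided between them. C4b lay 4.06 ± 0.28 log2 CPM above C4a in the cxC26 scr tumors and 4.48 ± 0.29 above it in the knockout tumors.

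Of 8 other genes for proteases and substrates of the classical and lectin steps, 2 were called higher, 2 lower and 4 neither, shares near the 19.1% and 20.7% of all tested genes. C1s1, the protease of C1 that cleaves C4, had 223, 186, 111 and 235 reads in cxC26 scr tumors against 1291, 250, 310 and 297 reads in knockout tumors. Its log2 fold change of 1.24 ± 0.41 (limma adjusted p = 0.0301) fell to 0.73 without knockout tumor 1, still called (0.0125), and the call was lost in 5 of 17 alternatives, namely without cxC26 scr tumor 2 (0.0627) or 3 (0.0887), without a filter (0.110), without a trend (0.0659) and with a robust variance (0.0859). C2, the protease subunit of the classical C3 convertase, rose by 1.22 on the log2 scale (limma adjusted p = 0.0113), from 21 to 38 reads to 44 to 137 reads. The span of C2 overlaps that of the same-strand gene model Gm20547, so some of its reads could have been left out or assigned elsewhere. C1ra, C1rb, C1s2 and C4a were not called, with log2 fold changes of 0.80, 0.98, 0.91 and -0.31. C1ra shares 40.1% of its 75-base windows with C1rb, and C1s1 shares 14.7% with C1s2, so the division of reads within these pairs is uncertain.

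In the alternative arm all 3 genes were higher in the knockout tumors. C3, the component on which all arms converge, lies at chr17:57203970-57228136 on the minus strand with 41 exons, and the small gene model Mir6978 overlaps it. Its 250 bases before the start, again from RefSeq GRCm38.p6, are shown because they hold a match to the C/EBP-type motif TTGCGNAA, in capitals, a motif found on either strand in 0.67% of the promoters of this length.
C3, chr17:57228137-57228386, minus strand: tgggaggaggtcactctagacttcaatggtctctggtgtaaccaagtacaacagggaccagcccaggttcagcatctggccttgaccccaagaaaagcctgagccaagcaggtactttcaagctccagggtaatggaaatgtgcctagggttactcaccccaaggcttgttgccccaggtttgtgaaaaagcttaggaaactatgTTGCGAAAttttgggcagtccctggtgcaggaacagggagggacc
The match spans 45 to 38 bases before the start. Neither C3 nor any of the other 5 genes with a promoter entry held the STAT-type motif TTCNNNGAA, which is present in 7.02% of promoters. This says only that these letters are not in the 250 bases searched.

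C3 had 826, 908, 500 and 873 reads in cxC26 scr tumors against 2978, 1134, 1010 and 1218 reads in knockout tumors. The groups were separate, and the remaining knockout tumors lay far closer to the cxC26 scr tumors than tumor 1 did. C3 rose from 5.60 ± 0.32 to 6.57 ± 0.66 log2 CPM, 1.95-fold, with a limma adjusted p-value of 0.0149. Without knockout tumor 1 the log2 fold change of 0.97 ± 0.27 became 0.65 and remained called (limma adjusted p = 0.00827). Without a filter on low expression it was not called (0.0652).

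Cfb encodes factor B, whose cleaved form is the protease of the alternative C3 convertase. Its span at chr17:34856374-34862518, with 18 exons, overlaps the spans of the same-strand gene models Gm20547 and Mir6972. Some of its reads could therefore have been left out or assigned elsewhere. Cfb had 367, 241, 131 and 144 reads in cxC26 scr tumors against 705, 371, 461 and 441 reads in knockout tumors. The cxC26 scr tumors were spread more widely than the knockout tumors, with an SD of 0.60 against 0.31 log2 CPM, and tumor 1 of the cxC26 scr group came closest to the knockout tumors. From a mean of 3.70 log2 CPM in the cxC26 scr tumors the level rose 2.46-fold (log2 fold change 1.30 ± 0.26, limma adjusted p = 0.00223).

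Cfp, on the X chromosome at chrX:20925454-20931555 with 9 exons, encodes properdin, the stabilizer of the alternative convertase, which leukocytes release. Reads were 544, 594, 494 and 559 in cxC26 scr tumors against 1627, 1106, 1229 and 1077 in knockout tumors. Both groups were tight, and a wide gap separated them. Cfp rose from 5.13 ± 0.08 to 6.37 ± 0.19 log2 CPM, 2.35-fold, with the smallest standard error of the 9 genes (log2 fold change 1.23 ± 0.10) and a limma adjusted p-value of 7.89e-06. Cfd, the protease that cleaves factor B and a product of fat cells, was not called (log2 fold change -0.36, limma adjusted p = 0.232).

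Cfb and C4b, the gene of the alternative arm with the largest increase and the classical gene that was not called, were also set side by side within each tumor, a pair chosen after their values were seen. Cfb minus C4b was -0.99, -1.64, -1.85 and -2.61 log2 CPM in the cxC26 scr tumors and -0.64, -0.19, -0.70 and -0.81 in the knockout tumors. Every knockout tumor lay above every cxC26 scr tumor in this difference, which was not tested.

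The receptors of the anaphylatoxins were both higher in the knockout tumors. C3ar1, the receptor of the C3 fragment C3a, is a gene with 2 exons at chr6:122847138-122856161, and C5ar1, the main receptor of the C5 fragment C5a, has 2 exons at chr7:16246743-16259540. Their transcripts share no 75-base window. The bases before the 2 starts are shown in the same form, with the AP-1-type TGAGTCA and NF-kB-type matches of C3ar1 and the ETS core matches of C5ar1 in capitals, all on the opposite strand.
C3ar1, chr6:122856158-122856407, minus strand: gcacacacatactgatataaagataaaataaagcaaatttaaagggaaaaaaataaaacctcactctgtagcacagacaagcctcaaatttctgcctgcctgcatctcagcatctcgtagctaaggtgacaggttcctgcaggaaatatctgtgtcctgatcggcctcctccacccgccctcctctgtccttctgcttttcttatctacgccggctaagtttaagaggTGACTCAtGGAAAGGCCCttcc
C5ar1, chr7:16259339-16259588, minus strand: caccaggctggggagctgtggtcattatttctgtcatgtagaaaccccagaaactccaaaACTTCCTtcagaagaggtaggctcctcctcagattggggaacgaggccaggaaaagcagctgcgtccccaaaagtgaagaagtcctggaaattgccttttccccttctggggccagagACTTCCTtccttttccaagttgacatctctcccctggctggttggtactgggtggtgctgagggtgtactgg
In C3ar1 the AP-1-type match covers bases 22 to 16 and the NF-kB-type match bases 14 to 5 before the start, without overlap. Among all promoters 4.46% hold the first motif and 1.41% the second. The ETS core occurs in C5ar1 at 190 to 184 and at 72 to 66 bases before the RefSeq start. That start lies 202 bases inside the GENCODE span of C5ar1, and both matches are therefore within the span. The promoter of Cfp held none of the 5 motifs searched.

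C3ar1 showed the largest increase of the 9 genes. It had 488, 636, 406 and 455 reads in cxC26 scr tumors against 1876, 811, 1183 and 1243 reads in knockout tumors. The groups did not overlap, with cxC26 scr tumor 2 above the rest of its group. Expression rose from 4.97 ± 0.22 to 6.34 ± 0.41 log2 CPM, 2.59-fold (log2 fold change 1.37 ± 0.18, limma adjusted p = 0.000179).

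C5ar1 reads were 251, 219, 140 and 142 in cxC26 scr tumors against 350, 367, 392 and 270 in knockout tumors. In contrast to the other genes, the highest value belonged to knockout tumor 2, at 4.73 log2 CPM against 4.43 in tumor 1. The mean rose from 3.55 ± 0.34 to 4.51 ± 0.23 log2 CPM, 1.94-fold (log2 fold change 0.96 ± 0.18, limma adjusted p = 0.00142), and the log2 fold change was 0.98 without knockout tumor 1. The 87 tested genes within 5 Mb of C5ar1 had a median log2 fold change of -0.35, opposite in sign to its own. The negative median was not local, since the 974 tested genes of chromosome 7 had a median of -0.27. Within the same distance of the C1q genes, Cfb, C3, Cfp and C3ar1 the medians lay between -0.15 and 0.07.

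The gene of C5 itself, named Hc in mouse, changed in the opposite direction to both receptors. Hc had 82, 82, 80 and 74 reads in cxC26 scr tumors against 15, 3, 9 and 4 reads in knockout tumors. Its level in the knockout tumors was 8.99% of that in the cxC26 scr tumors (log2 fold change -3.48 ± 0.39, limma adjusted p = 6.52e-05). The gene passed the filter through the cxC26 scr tumors alone, and these values rest on few reads. The second C5a receptor, C5ar2, had 4, 9, 5 and 4 reads in cxC26 scr tumors against 25, 28, 23 and 10 reads in knockout tumors, below the filter and therefore not tested.

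**Figure D2:**
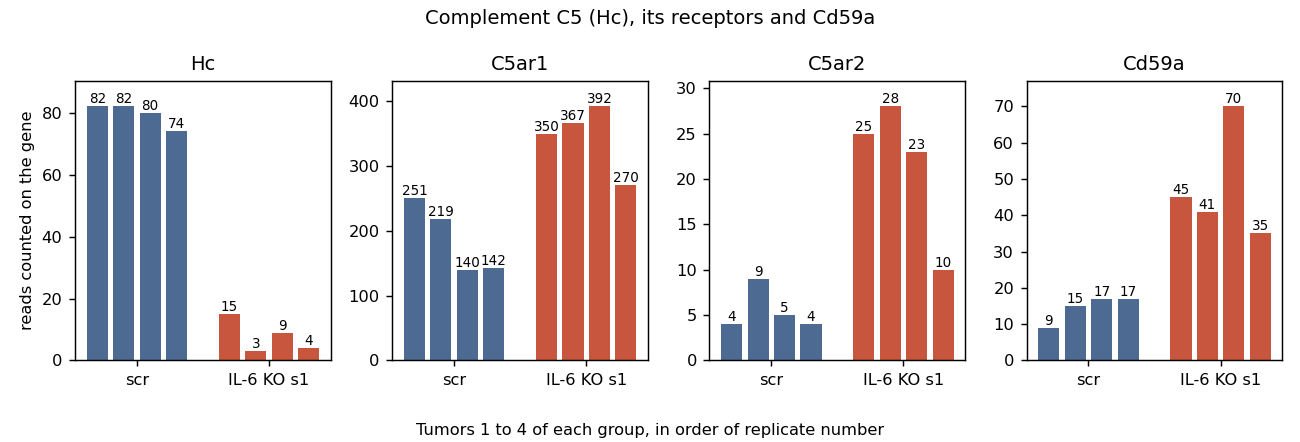
Reads counted on Hc (complement C5), on the C5a receptor genes C5ar1 and C5ar2, and on Cd59a in each tumor, with bars in the order of replicate numbers and the y axis from 0 reads. Hc falls from 74 to 82 reads to 3 to 15 reads, while C5ar1, C5ar2 and Cd59a are higher in every knockout tumor than in every cxC26 scr tumor.

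Levels of different genes were compared per kb of transcript. In the cxC26 scr tumors C1qa was the highest at 7.21 log2 CPM per kb, followed by C1qc at 6.62, C1qb at 5.28 and Cfp at 4.42. C3 (3.24), C4b (3.04) and C3ar1 (2.87) came next, with neighbours in this order closer to each other than the SD of 0.22 to 0.32 between tumors. Cfb (2.24) and C5ar1 (2.20) were last and did not differ beyond their spread. In the knockout tumors the order of the first 4 genes was the same, at 8.24, 7.45, 6.20 and 5.66 log2 CPM per kb. C3ar1 (4.24) and C3 (4.21) followed with nearly the same level, then Cfb (3.54), and C5ar1 (3.16) and C4b (3.15) were last. C4b and C5ar1 did not differ beyond the spread between the knockout tumors.

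The wider system was described with 44 further genes, of which 23 passed the filter. Of these 10 were higher, 5 were lower and 8 were not called, with a median log2 fold change of 0.57. The wider list was thus called in both directions, at 10 of 23 against 19.1% and 5 of 23 against 20.7% of all tested genes.

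Regulators that restrain the cascade were among the higher genes. Serping1, the C1 inhibitor, had 622, 745, 417 and 562 reads in cxC26 scr tumors against 2208, 745, 1019 and 959 in knockout tumors, with a log2 fold change of 1.02 ± 0.24 (limma adjusted p = 0.00623) that was 0.73 without knockout tumor 1. Cd59a, which blocks the membrane attack complex, had 9 to 17 reads in cxC26 scr tumors against 35 to 70 reads in knockout tumors, through which it passed the filter (log2 fold change 1.73, limma adjusted p = 0.00132). Cr1l, the mouse membrane regulator known as Crry, rose by 0.31 (limma adjusted p = 0.0220), a call lost without cxC26 scr tumor 3 (0.0708) or knockout tumor 3 (0.0687). Cd55, which speeds the decay of convertases, and Clu, clusterin, were not called, at log2 fold changes of 0.26 and -0.27.

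Receptors for deposited complement fragments were divided. Itgam and Itgb2 encode the chains of complement receptor 3, and Itgax pairs with the same Itgb2 chain in complement receptor 4. Itgam had 996, 916, 988 and 1027 reads in cxC26 scr tumors against 3722, 1471, 2552 and 2515 reads in knockout tumors (log2 fold change 1.36 ± 0.18, limma adjusted p = 0.000208). Itgb2 rose by 1.45 on the log2 scale (limma adjusted p = 0.000423). Itgax went the other way, from 1603, 1043, 919 and 1199 reads to 880, 145, 233 and 282 reads (log2 fold change -1.89 ± 0.39, limma adjusted p = 0.00259). Its fall was larger without knockout tumor 1, at -2.37. Cd93, once described as a receptor of C1q, also fell (log2 fold change -1.15, limma adjusted p = 0.000361).

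In the lectin arm the recognition molecules Fcna, ficolin A, and Colec12, a membrane collectin, rose by 1.08 and 0.96 on the log2 scale (limma adjusted p = 0.000394 and 0.000818). The associated proteases Masp1 and Masp2 fell, by 0.81 (limma adjusted p = 0.00231) and 0.75 (0.0363) on the log2 scale. The Masp2 call was lost in 8 of 16 alternatives, among them each removal of a single cxC26 scr tumor. Of the wider list 9 genes had 3 reads or fewer in every tumor, among them Mbl1, Mbl2, Fcnb, C8a, C8b and C9. Terminal components other than Hc were scarce, and C6, with 7 to 35 reads, was the only other one tested and was not called.

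**Figure D3:**
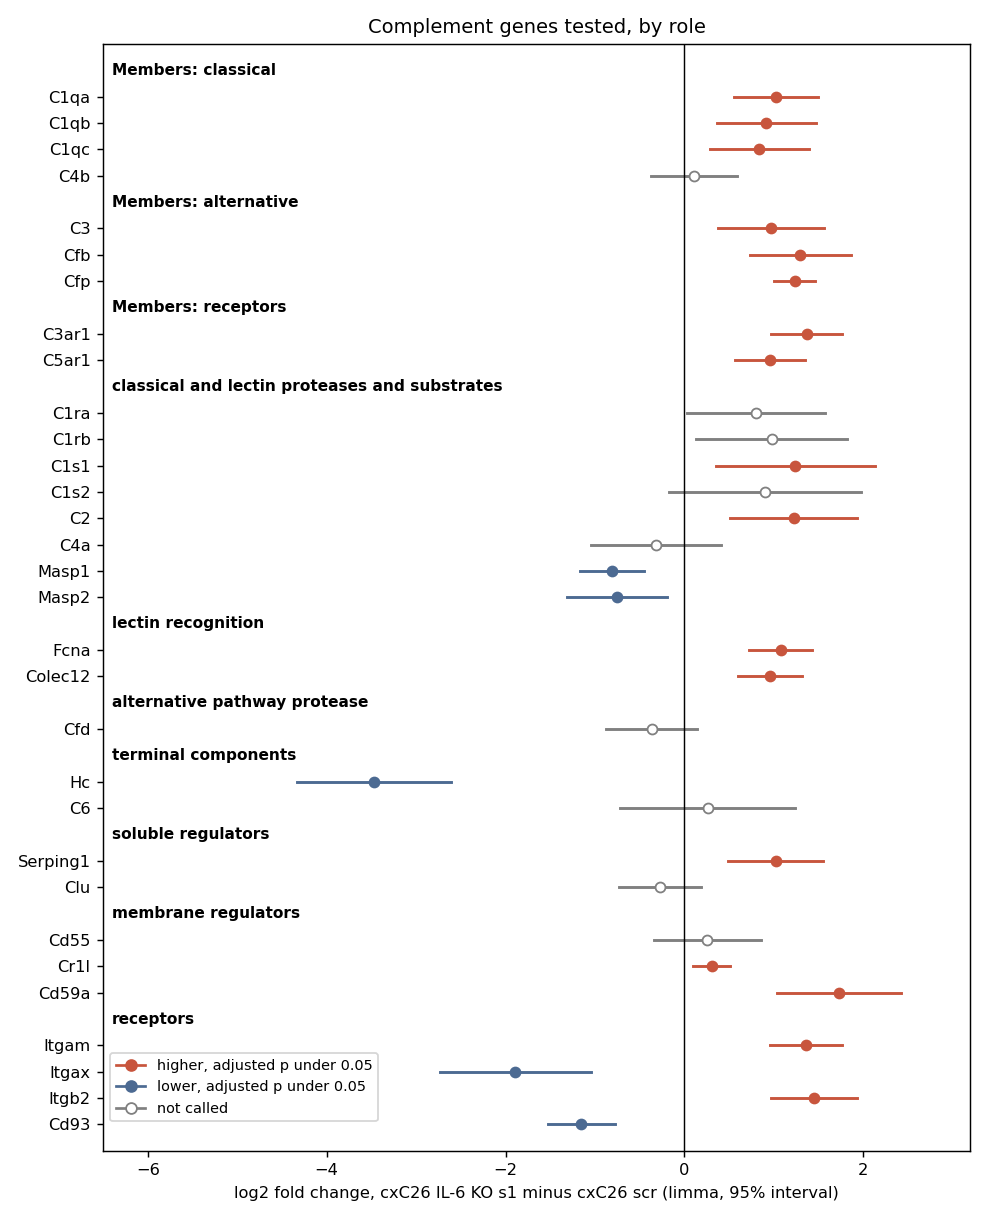
Log2 fold changes (x axis, cxC26 IL-6 KO s1 minus cxC26 scr) with 95% intervals from limma for the 9 complement genes and tested genes of the wider list, grouped by role, with filled points for adjusted p-values under 0.05. C4b is the one gene of the 9 with an open point, and Hc, Itgax, Cd93, Masp1 and Masp2 lie on the negative side.

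Because C1q, properdin and the anaphylatoxin receptors are products of myeloid cells, macrophage markers were examined beside them. Of 10 markers 9 were higher, against 19.1% of all tested genes. The remaining 1, Mertk, was lower (log2 fold change -0.36, limma adjusted p = 0.00983), against 20.7% of all tested genes. The summed level of the 10 markers was 700 to 885 CPM in cxC26 scr tumors against 1412 to 2145 CPM in knockout tumors, and it was highest in knockout tumor 1. Lyz2 (log2 fold change 1.20) and Mrc1 (0.52, overlapping groups) had the highest levels, and Adgre1, which encodes the F4/80 antigen, rose by 1.50. The 3 monocyte markers were also higher, at 18.8 to 24.7 CPM in sum against 69.4 to 92.6 CPM. Among them Ly6c2, at 7 to 18 reads in cxC26 scr tumors against 53 to 134, needed the knockout tumors to pass the filter. Its call therefore follows in part from the filter.

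Relative to the mean of the 10 macrophage markers, the group means of the C1q genes hardly differed. The mean of the 3 chains lay 0.99 ± 0.18 log2 CPM above the marker mean in the cxC26 scr tumors and 0.98 ± 0.39 above it in the knockout tumors. Knockout tumors 1 to 4 were at 1.49, 0.57, 0.99 and 0.88. The difference between the groups ranged from -0.18 to 0.13 when 1 tumor was left out. With Adgre1 and Csf1r as the only markers the difference between the groups was -0.447. Knockout tumors 2 to 4 were then at 0.30 to 0.43, against 0.89 to 1.07 in the cxC26 scr tumors and 1.04 in knockout tumor 1. Relative to the 10 markers the group means of C3 and C5ar1 differed by 0.03 each, that of Cfp by 0.30, that of Cfb by 0.36 and that of C3ar1 by 0.44, whereas C4b was at -0.82. These relative values were not tested, and the part of a changed number of macrophages in the results was not tested.

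**Figure D4:**
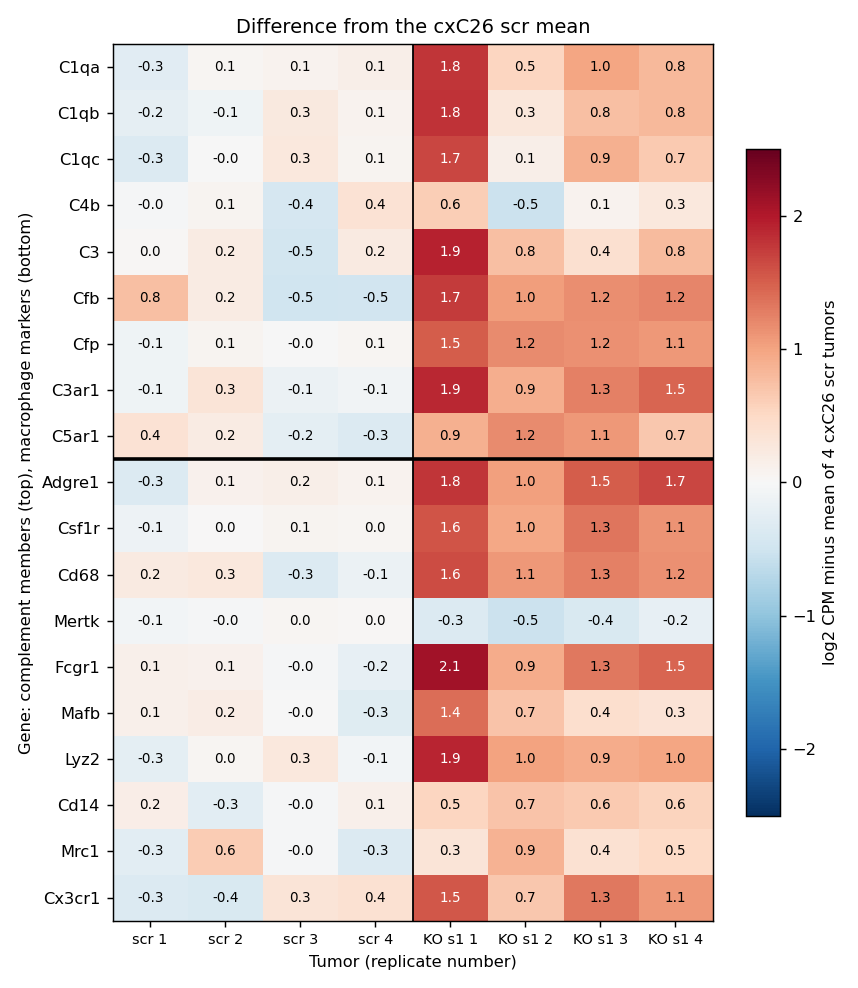
Difference of each tumor from the mean of the 4 cxC26 scr tumors, in log2 CPM, for the 9 complement genes (upper block) and 10 macrophage markers (lower block), with red for higher and blue for lower values. Knockout tumor 1 is the darkest column for the C1q genes, C3, C3ar1, Lyz2 and Fcgr1, while C4b differs in sign between knockout tumors and Mertk is below 0 in all of them.

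Other cell types were followed by lists of markers, with counts to be read beside 19.1% higher and 20.7% lower among all tested genes. Of 6 T cell markers 4 were tested and higher, and of 6 mast cell markers 4, the latter list lowest in knockout tumor 1 among the knockout tumors. Cd8a, with 0 to 3 reads in cxC26 scr tumors against 26 to 92 in knockout tumors, and Cd3g passed the filter through the knockout tumors alone, as did Jchain of the plasma cells, so their calls follow in part from the filter. Cd4, Lck and the mast cell marker Cpa3 reached 1 CPM in fewer than 4 cxC26 scr tumors. They needed knockout tumors to pass, so the same limit holds for their calls. Of B and plasma cell markers 1 of 2 tested was higher, of neutrophil markers 1 of 3 (Ly6g had at most 2 reads), of endothelial markers 0 of 5 and of fibroblast markers 1 of 6 with 3 lower. The untested neutrophil marker Camp had 0 to 3 reads in cxC26 scr tumors against 6 to 16 in knockout tumors. Cxcr2, Mpo and Retnlg, also untested, had overlapping ranges. Zbtb46, the single dendritic cell marker tested of 6, fell by 2.42 on the log2 scale, while the untested marker Xcr1 had 2 to 5 reads in cxC26 scr tumors against 6 to 17 in knockout tumors and Flt3 and Siglech had overlapping ranges. Of the epithelial and colon markers 2 of 4 tested were higher and 1, Cdx2, lower. Cdx2 passed the filter through the cxC26 scr tumors alone, so its call follows in part from the filter. Adipocyte, skeletal muscle and erythroid markers had no calls, and muscle markers summed to 5.91 to 145 CPM in the cxC26 scr tumors and 19.3 to 293 CPM in the knockout tumors. Of 4 keratinocyte markers only Krt10 was tested, and it was not called. The untested Krt5, Krt14 and Krt1 had 59, 28 and 11 reads in cxC26 scr tumor 1, against at most 3, 2 and 1 reads in any other tumor. Alb, the defining product of hepatocytes, had 0 to 94 reads. Of 5 hepatocyte markers only Apoa1 was tested. Apoa1 was lower, and it too passed the filter through the cxC26 scr tumors alone.

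Across the 8 tumors, after removal of the group means, the genes that followed the mean of the C1q chains most closely were Ly86 (r = 0.985), Trim12c (0.982), Atp8a1 (0.980), Trpm2 (0.977) and Ctsh (0.973). Those closest to C3 were Irf8 (r = 0.983), Arhgap19 (0.969), Plcb2 (0.963), Rwdd4a (0.961) and Scimp (0.960). Within the complement genes, Cfp had the highest correlation with the C1q mean (0.813), followed by C3ar1 (0.773), C4b (0.667) and C3 (0.634), whereas Cfb was at 0.131 and C5ar1 at -0.444. Without knockout tumor 1 these values were 0.143 for Cfp, 0.409 for C3ar1, 0.408 for C4b, -0.459 for C3, -0.555 for Cfb and -0.684 for C5ar1. The positive value of C3 thus rested on that tumor and that of Cfp largely so, while the 5 genes closest to the C1q mean remained at 0.912 or above. These correlations are descriptions over few tumors, both genes of a pair were read from the same libraries, and the 5 closest genes are the extremes of all tested genes.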

How the data were processed

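RNA from 8 subcutaneous tumors was sequenced in paired ends. The values deposited by the authors are log2 CPM of 27179 genes from limma-voom. They rest on featureCounts totals per gene from Hisat2 alignments to mm10 (GRCm38), with Trimmomatic run beforehand. The strand setting is not given in the sources used here, so reads of overlapping genes cannot be told apart. Inverting the transformation, with its offset of 0.5 reads, gave whole reads for 100% of the values (within 0.001 reads).

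Groups were taken from sample titles. The deposited log2 values were compared between groups in R 4.3.3 with limma 3.58.1 (lmFit, eBayes with trend), without covariates, for the 13262 genes reaching 1 CPM in 4 or more tumors, with Benjamini-Hochberg adjustment over all of them. The procedure was tested on simulated data. Two-sided exact permutation tests were run on single genes. Gene models were those of GENCODE M21.

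The 9 genes, the wider complement list and the marker lists were chosen with earlier results of these data known. Named are the 9 genes, wider-list genes past the threshold or with a regulatory, receptor or protease role that were tested, the 2 most abundant markers of the macrophage list, the 5 genes most correlated with the C1q mean and with C3, and Il6. A gene of the wider list is counted but not reported here. Other genes named, namely further markers, C6 and wider-list genes under the filter, were singled out after their values had been seen.

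Alternatives were no filter, a minimum mean of 3 log2 CPM, median centring, quantile normalization, each tumor left out, the replicate number as a block, no trend, robust variance, log2(CPM + 1), voom weights computed from whole reads, a 2-fold threshold, and Adgre1 and Csf1r alone as macrophage markers. Correlations without knockout tumor 1 were added later, with the data known.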

Additional observations from a re-analysis of the deposited data

Results flagged for a closer look

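In 5 of 64 groups of 4 tumors examined for the complement genes and the tested genes of the wider list, 1 tumor stood apart from the other 3 by Dixon's criterion, which chance passes in about 1 of 20 groups, or 3.2 of 64. C3ar1 in cxC26 scr tumor 2 was at 5.30 log2 CPM, with the others of its group between 4.84 and 4.89, and all of them below the knockout tumors. C1ra, the protease that activates C1s, was at 4.46 log2 CPM in knockout tumor 1 against 3.17 to 3.24 in the others. C1s1 in the same tumor was at 6.31 against 4.18 to 4.36, and C1s2 at 2.90 against 0.42 to 0.69. C1rb in cxC26 scr tumor 3 was at -1.37 log2 CPM, from 5 reads, against -0.09 to 0.07. The cause of these deviations was not tested.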

How the results depend on the processing

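The 9 complement genes and 17 alternatives, without the 2-fold threshold, made 153 pairs. Of these, 145 kept direction and side of the threshold, 6 lost the call and 2 reversed. C4b reversed, to -0.027 without cxC26 scr replicate 3 and to -0.056 without IL-6 KO s1 replicate 1, and ranged from -0.056 to 0.33 when 1 tumor was left out. The 8 genes called higher became 5 without a filter and 4 with a 2-fold threshold, and 7 to 8 when 1 tumor was left out. The 5 genes of the wider list called lower became 3 under a minimum mean of 3 log2 CPM, 3 with a 2-fold threshold and 3 to 5 when 1 tumor was left out. Without any of the cxC26 scr tumors Hc no longer passed the filter. The cause of the other changes was not tested. Over all genes the 2-fold threshold left 829 of 2529 calls higher and 521 of 2748 lower. Relative to macrophage markers, the C1q genes differed by -0.00510 between the groups and by -0.447 with Adgre1 and Csf1r alone. The replicate number was not treated as a pairing, and the correlations of deviations for the 4 numbers were between -0.0593 and 0.0570. Such correlations over all tested genes could miss a shared condition that affects few genes, so they do not exclude a pairing. With the replicate number as a block, 8 of the 9 genes were called higher and 0 lower, 11 of the wider list were higher and 4 lower, and over all genes 2477 were higher and 2688 lower. C5ar2 and the knockout values of Hc rest on few reads and have wide counting error.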

Other observations

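Several genes of the wider complement list lay under the filter and had overlapping ranges in the groups. Cr2, which encodes the complement receptors of B cells, had 6, 11, 3 and 4 reads in cxC26 scr tumors against 5, 0, 1 and 0 in knockout tumors. Colec10, a soluble collectin, had 1 to 6 reads against 0 to 1. Vsig4, the complement receptor of resident macrophages, was low in both groups, at 3 to 15 and 8 to 28 reads. Cfi, the protease that inactivates C3b and C4b, had 3 to 10 and 4 to 6 reads, and Cd46 had 4 to 12 and 4 to 8 reads.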
